A study of Mus musculus with 9 samples.

Results

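The expression of 10 mouse genes known for their roles in neutrophils was examined in the colon of mice with colitis-associated cancer. The genes were Csf3r, Fpr1, Fpr2, Trem1, Clec4d, Clec4e, Ngp, Camp, Ltf and Retnlg. They were taken by gene symbol, and all 10 were found among the 21498 symbols of the deposited files. Total RNA from the colorectum of 9 male mice of the outbred ICR strain was sequenced, 3 in each of 3 groups. The mice entered the experiment at 5 weeks of age, and the labels place all 9 samples at the end of week 18. Control mice received neither AOM/DSS nor antibody, and their tissue is labelled normal colorectal mucosa. AOM/DSS + IgG Ab mice received a single intraperitoneal injection of 10 mg/kg azoxymethane (AOM), a colon carcinogen, then drank water with dextran sulfate sodium (DSS), an agent that damages the lining of the colon, in 3 cycles of 2% over 7 days, 1.5% over 5 days and 1.5% over 5 days. During these cycles they were given 1.5 mg/kg of a negative control IgG antibody intravenously every 2 days. AOM/DSS + anti-S100a9 Ab mice had the same AOM and DSS and the same dose of a neutralizing antibody to S100a9. The tissue of both AOM/DSS groups is labelled colorectal adenocarcinoma. These groups are called IgG Ab and anti-S100a9 Ab from here on.

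Neutrophils are short-lived white blood cells that are made in the bone marrow under the control of the cytokine G-CSF and are among the first cells to enter an injured or infected mucosa. They find their way with receptors for chemokines and for formylated peptides of bacteria, and they carry granules filled with antimicrobial proteins that are made in sequence while the cells mature. The RNA for most granule proteins is abundant in marrow precursors and low in mature cells, whereas receptor RNAs are made late. S100a9, the target of the antibody, forms calprotectin with S100a8, a protein complex that is abundant in the cytosol of these cells.

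Expression was taken as FPKM, fragments scaled by transcript length and by the sequencing depth of the sample. This unit was read from the form of the values. The FPKM totals of the 9 samples lay between 308377 and 408811, and since no fragment numbers are given, counting error could not be estimated. The transcripts of Gapdh, Ppia and Rps18, common to almost every cell type, had maxima of 0.755, 0.974 and 0.391 FPKM. A value of 0 is therefore described only as listed at 0, and levels of different genes are compared only as listed. Differences between groups were tested with limma on log2(FPKM + 0.1) over 15278 genes, with Benjamini-Hochberg adjustment over all of them. All 10 genes passed the filter of at least 0.1 FPKM in at least 3 samples. On this scale changes of weakly expressed genes come out too small, and p-values measure the spread between these mice. The 10 genes were listed at low levels. The median gene tested lay between 5.14 and 6.4 FPKM in the 9 samples. Of the 10, 7 had a mean under 1 FPKM in Control, 1 in IgG Ab and 6 in anti-S100a9 Ab. In whole tissue, fewer neutrophils and less RNA per neutrophil cannot be told apart. The 8 colon epithelium markers were detected in all groups, with summed levels of 2700 to 3340 FPKM in Control, 1690 to 2840 FPKM in IgG Ab and 2260 to 2940 FPKM in anti-S100a9 Ab.

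To address how the neutrophil genes differ between AOM/DSS tissue and normal mucosa, the IgG Ab samples were compared with Control. The receptor gene Csf3r, the activating receptor genes Trem1, Clec4d and Clec4e, the granule gene Ltf and the secreted-protein gene Retnlg rose, 6 of the 10 genes at an adjusted p under 0.05 (limma). Of all genes tested, 8.18% were higher by this rule. The summed level of the 10 genes was 5.03 to 6.52 FPKM in the Control samples and 19.0 to 105 FPKM in the IgG Ab samples. Retnlg alone contributed 5.38, 34.0 and 75.6 FPKM to the sums of IgG Ab replicates 1, 2 and 3, so the upper end mostly reflects this gene. Every IgG Ab sample was above every Control sample for 7 of the 10 genes, and this held for 20.7% of all genes tested. With the looser thresholds of p under 0.05 before adjustment and a change over 2-fold, 7 of the 10 genes were higher, the seventh being Ngp, against 8.43% of all genes. Camp, Fpr1 and Fpr2 passed under neither rule. The median difference of the 10 genes was 2.55 on the log2 scale, set by Clec4d and Clec4e, and that of all genes tested was 0.09. The count of 6 was 4 without Control replicate 2, without IgG Ab replicate 3 or with only the 2 groups compared in the fit, and 8 without IgG Ab replicate 1.

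To address how the genes differ with the S100a9 antibody, the AOM/DSS groups were compared. The paper reports fewer tumors with this antibody, and its text calls the tissue of that group colon mucosa. Over all genes tested, the log2 values of anti-S100a9 Ab samples correlated at 0.914 to 0.972 with Control samples. With IgG Ab samples they correlated at 0.839 to 0.926. The part of tumor content in the differences between the AOM/DSS groups was not tested. Fpr1, Trem1, Clec4d, Ltf and Retnlg were lower in the anti-S100a9 Ab samples, 5 of the 10 genes at an adjusted p under 0.05 (limma), where 14.4% of all genes tested were lower. The summed level of the 10 genes was 6.28 to 9.34 FPKM in these samples, of which Retnlg contributed 0.817 to 1.21 FPKM. Every anti-S100a9 Ab sample was below every IgG Ab sample for 7 of the 10 genes, against 28.5% of all genes. With the looser thresholds, Clec4e was lower as well, 6 of the 10 genes in all, against 8.38% of all genes. The median difference of the 10 genes was -1.89 on the log2 scale and that of all genes tested was -0.06. The count of 5 changed when single mice were left out: it was 1, Trem1 alone, without anti-S100a9 Ab replicate 1 or replicate 3, and 2 without replicate 2 of that group or without IgG Ab replicate 3. The log2 differences of the 5 genes stayed negative in every fit that left out a mouse. Such fits have fewer mice in a group.

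Against Control, none of the 10 genes differed in the anti-S100a9 Ab samples at an adjusted p under 0.05 (limma), and 0.00655% of all genes tested, a single gene, were higher by this rule. At an unadjusted p under 0.05, 2 of the 10 genes were higher, Csf3r and Clec4d, and 16% of all genes differed in either direction. Clec4d was the 1 gene that was also more than 2-fold higher, against 2.28% of all genes. Csf3r, Clec4d and Ngp were higher in every anti-S100a9 Ab sample than in every Control sample, 3 of the 10 genes, against 17.3% of all genes. The mean log2 value was higher than in Control for 9 of the 10 genes and lower for Fpr1. Among the 9, Retnlg (-0.54 without Control replicate 1) and Ltf (-0.33 without anti-S100a9 Ab replicate 2) changed direction when 1 mouse was left out. The comparisons share groups, so their counts are not independent of each other.

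**Figure D1:**
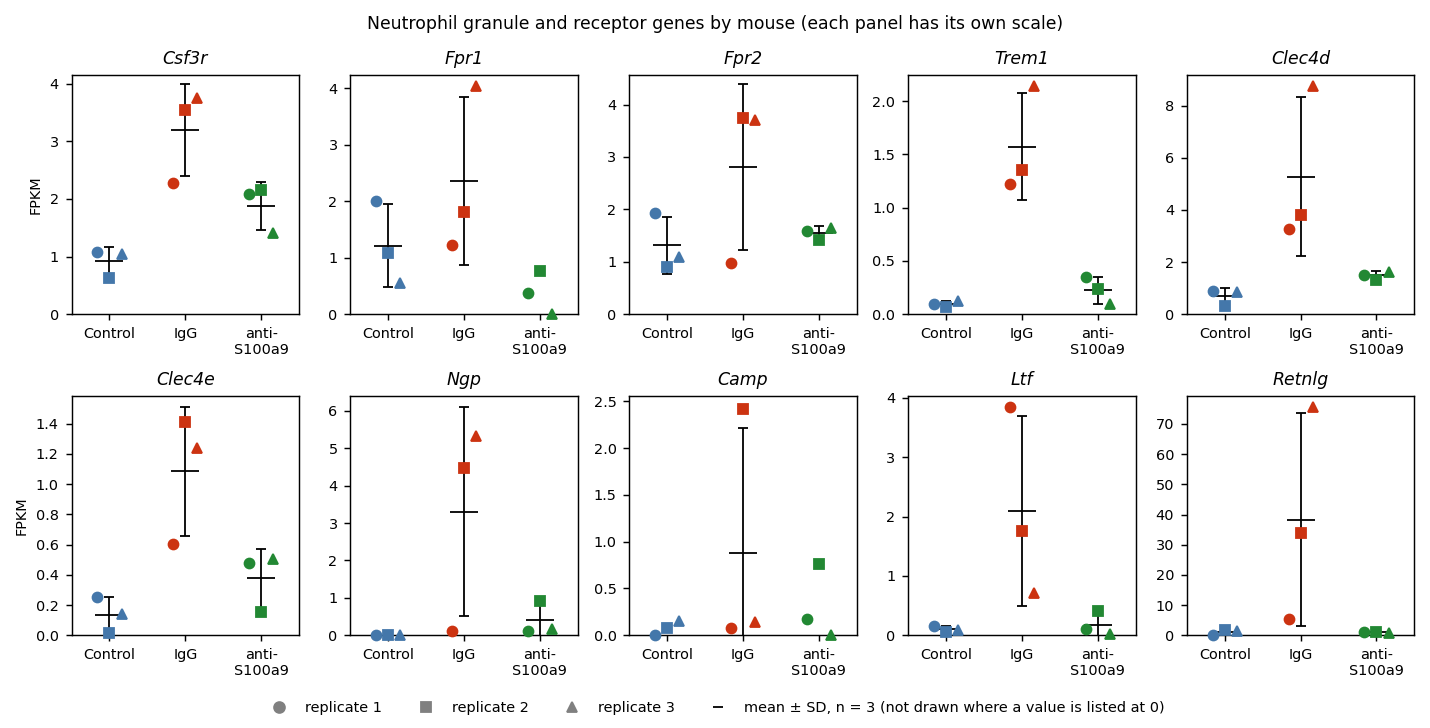
Each panel plots the FPKM of 1 gene in the 9 mice, with the groups on the x axis, symbols for the replicate number, and the mean with its SD (n = 3), cut at 0, for groups with no value listed at 0. The IgG Ab mice lie above all Control mice for 7 of the 10 genes, and the highest value of a gene runs from 1.41 FPKM for Clec4e to 75.6 FPKM for Retnlg.

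**Figure D2:**
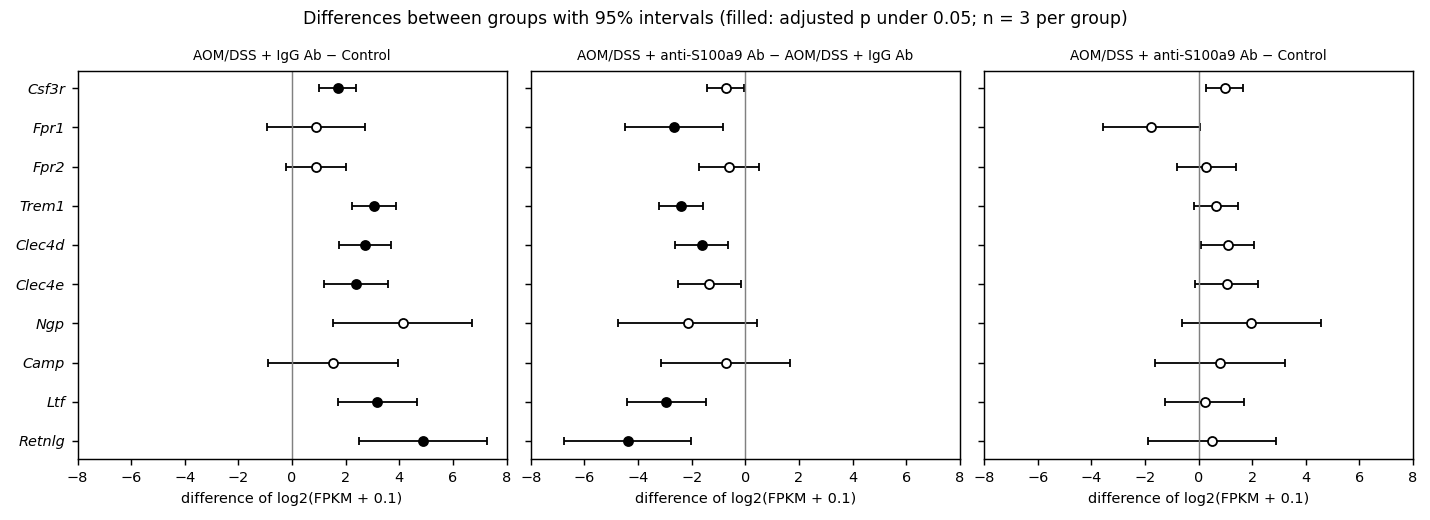
Differences of mean log2(FPKM + 0.1) between the groups, with 95% intervals from limma (n = 3 per group), are plotted for the 10 genes in 3 panels, 1 for each comparison, and filled points have an adjusted p under 0.05. In the first panel 6 of 10 points are filled, in the second 5 of 10, and in the last none.

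Csf3r, the receptor for G-CSF, lies on chromosome 4 (GRCm38, 126024550 to 126044440, plus strand). It was expressed at 1.08, 0.625 and 1.04 FPKM in the 3 Control samples, at 2.28, 3.55 and 3.75 FPKM in the IgG Ab samples and at 2.08, 2.15 and 1.40 FPKM in the anti-S100a9 Ab samples. The 3 groups did not overlap, with the anti-S100a9 Ab mice between the other two. Csf3r rose in IgG Ab against Control by 1.70 on the log2 scale (standard error 0.30, adjusted p = 0.0111, limma), and this call held under all 19 alternatives. The difference between the AOM/DSS groups was -0.73 (95% interval -1.42 to -0.04, adjusted p = 0.112, limma), and that between anti-S100a9 Ab and Control was 0.97 (95% interval 0.29 to 1.66, adjusted p = 0.301, limma).

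Fpr1 and Fpr2 encode formyl peptide receptors, which sense N-formylated peptides shed by bacteria and damaged mitochondria. They are neighbours on chromosome 17 with 3.88 kb between them and no coding gene in the gap, Fpr1 from 17876471 to 17883940 on the minus strand and Fpr2 from 17887824 to 17893952 on the plus strand. The annotation has Fpr2 overlapping its relative Fpr3, which was listed at 0 in all 9 samples, so fragments of the pair may have been assigned to Fpr2. Fpr1 was at 2.00, 1.08 and 0.554 FPKM in Control, at 1.23, 1.80 and 4.04 FPKM in IgG Ab, and at 0.376 and 0.765 FPKM in anti-S100a9 Ab replicates 1 and 2, and it was listed at 0 in replicate 3. Control and IgG Ab overlapped, whereas all anti-S100a9 Ab mice were below all IgG Ab mice. The difference between IgG Ab and Control was 0.90 (95% interval -0.92 to 2.71, adjusted p = 0.488, limma). Fpr1 fell by 2.66 between the AOM/DSS groups on the log2 scale (standard error 0.80, adjusted p = 0.0457, limma), and this call held under 4 of 19 alternatives. Without the replicate listed at 0 the difference was -1.77 (adjusted p = 0.104, limma), and over the alternatives the adjusted p ranged from 0.0409 to 0.126.

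Fpr2 was at 1.94, 0.908 and 1.09 FPKM in Control, at 0.978, 3.74 and 3.71 FPKM in IgG Ab and at 1.60, 1.42 and 1.65 FPKM in anti-S100a9 Ab. IgG Ab replicate 1 lay within the Control range, and the other mice of that group were above all mice of the other groups. The difference between IgG Ab and Control was 0.90 (95% interval -0.22 to 2.01, adjusted p = 0.259, limma), and without IgG Ab replicate 1 it was 1.51 (adjusted p = 0.0262, limma). Between the AOM/DSS groups the difference was -0.60 (95% interval -1.72 to 0.52, adjusted p = 0.384, limma), and without the same mouse it was -1.21 (adjusted p = 0.0475, limma).

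Trem1 encodes a receptor that amplifies inflammatory responses of neutrophils and monocytes through the adaptor Tyrobp. It lies on chromosome 17 from 48232768 to 48246924 on the plus strand, and a processed pseudogene on the opposite strand, AC241601.2, overlaps it. The 250 bases before its start site in the RefSeq table (GRCm38.p6, chr17:48232489-48232738, plus strand) are shown because Trem1 had the smallest adjusted p of the 10 genes in both comparisons with IgG Ab. Windows of 300 bases, 250 before and 50 after the start site, were available for all 10 genes and were searched on both strands for 2 short motifs of transcription factors that are used throughout the myeloid lineage, TTGCNNAA for the C/EBP family and GAGGAA for PU.1. Capitals mark the matches.
Trem1 promoter: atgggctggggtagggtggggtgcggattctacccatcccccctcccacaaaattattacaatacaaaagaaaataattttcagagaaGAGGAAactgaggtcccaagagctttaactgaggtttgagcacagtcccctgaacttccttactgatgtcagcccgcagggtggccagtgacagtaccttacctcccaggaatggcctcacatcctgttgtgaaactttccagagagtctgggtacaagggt
The window of Trem1 held 1 match to the PU.1 letters, 162 bases before the start site, and none to the C/EBP letters. GAGGAA was found in 6 of the 10 genes (Csf3r, Fpr2, Trem1, Clec4d, Clec4e and Ltf) and in 28.3% of all 32851 windows of the table. A match is a description of letters and not a binding site.

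Trem1 was at 0.0970, 0.0703 and 0.119 FPKM in Control, at 1.22, 1.35 and 2.15 FPKM in IgG Ab and at 0.349, 0.233 and 0.0936 FPKM in anti-S100a9 Ab. All IgG Ab mice were above all others, and anti-S100a9 Ab replicate 3 lay within the Control range. Trem1 rose in IgG Ab against Control by 3.06 on the log2 scale (standard error 0.37, adjusted p = 0.00212, limma). It fell by 2.40 between the AOM/DSS groups (standard error 0.37, adjusted p = 0.00711, limma). Both calls held under all 19 alternatives, including each mouse left out in turn, although the size of the rise ran from 1.21 with a pseudocount of 1 to 3.89 with a pseudocount of 0.01. The difference between anti-S100a9 Ab and Control was 0.66 (95% interval -0.17 to 1.49, adjusted p = 0.382, limma).

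Clec4d and Clec4e encode C-type lectins that bind microbial glycolipids and signal through the Fc receptor gamma chain, encoded by Fcer1g. They lie side by side on chromosome 6 with 6.52 kb between them, Clec4d from 123262111 to 123275265 on the plus strand and Clec4e from 123281789 to 123289870 on the minus strand. Clec4d was at 0.896, 0.333 and 0.849 FPKM in Control, at 3.25, 3.81 and 8.78 FPKM in IgG Ab and at 1.51, 1.32 and 1.63 FPKM in anti-S100a9 Ab. The 3 groups did not overlap, with the anti-S100a9 Ab mice in between. Clec4d rose in IgG Ab against Control by 2.72 on the log2 scale (standard error 0.44, adjusted p = 0.00729, limma), a call that held under all 19 alternatives. It fell by 1.63 between the AOM/DSS groups (standard error 0.44, adjusted p = 0.0327, limma). That call was lost without IgG Ab replicate 3 and without any single anti-S100a9 Ab mouse, with adjusted p from 0.0751 to 0.103 in those fits (limma). The difference was -1.64, -1.55 and -1.69 without anti-S100a9 Ab replicates 1, 2 and 3, and -1.19 without IgG Ab replicate 3. Against Control the anti-S100a9 Ab mice differed by 1.09 (95% interval 0.11 to 2.08, adjusted p = 0.301, limma).

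Clec4e was at 0.254, 0.0170 and 0.139 FPKM in Control, at 0.602, 1.41 and 1.24 FPKM in IgG Ab and at 0.477, 0.153 and 0.502 FPKM in anti-S100a9 Ab. The IgG Ab mice were above all others, and the other groups overlapped. Clec4e rose in IgG Ab by 2.39 on the log2 scale (standard error 0.52, adjusted p = 0.0234, limma), with an adjusted p of 0.0782 without Control replicate 2, 0.0636 without IgG Ab replicate 3 and 0.0539 with only the 2 groups compared in the fit. Between the AOM/DSS groups the difference was -1.34 (95% interval -2.52 to -0.16, adjusted p = 0.0951, limma).

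Ngp, Camp and Ltf encode proteins of the secondary granules, and all lie on chromosome 9 of GRCm38. Camp (109847379 to 109849617, minus strand), the precursor of the antimicrobial peptide cathelicidin, is 570 kb from Ngp (110419747 to 110423012, plus strand), the neutrophilic granule protein, which belongs to the same cystatin-related group of precursors, with 8 coding genes between them. Ltf (111019271 to 111042767, plus strand), the iron-binding lactoferrin, is 596 kb from Ngp, with 20 coding genes between them. Retnlg (chromosome 16, 48872621 to 48874496, plus strand) encodes resistin-like gamma, a small secreted protein. The 250 bases before the start sites of Ngp (chr9:110419558-110419807), Ltf (chr9:111019042-111019291) and Retnlg (chr16:48872358-48872607) are shown. All lie on the plus strand of GRCm38.p6 in the RefSeq table. The window of Camp, on the minus strand, is not shown. Capitals mark matches to TTGCNNAA or GAGGAA on either strand.
Ngp promoter: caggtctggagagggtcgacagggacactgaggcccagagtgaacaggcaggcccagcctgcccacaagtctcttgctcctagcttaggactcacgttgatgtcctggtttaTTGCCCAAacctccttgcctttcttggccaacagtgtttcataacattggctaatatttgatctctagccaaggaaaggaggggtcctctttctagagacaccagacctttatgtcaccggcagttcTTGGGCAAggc
Ltf promoter: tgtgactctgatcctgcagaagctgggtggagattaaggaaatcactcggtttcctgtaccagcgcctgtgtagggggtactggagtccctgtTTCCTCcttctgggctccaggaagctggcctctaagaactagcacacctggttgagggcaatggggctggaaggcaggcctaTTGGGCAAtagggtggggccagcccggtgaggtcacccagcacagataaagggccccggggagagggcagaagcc
Retnlg promoter: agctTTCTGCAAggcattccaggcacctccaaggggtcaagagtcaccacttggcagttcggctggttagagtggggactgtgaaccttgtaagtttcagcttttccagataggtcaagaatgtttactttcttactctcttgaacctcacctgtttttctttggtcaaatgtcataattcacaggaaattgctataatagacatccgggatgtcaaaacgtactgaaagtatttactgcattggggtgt
The C/EBP letters matched in the window of Ngp 138 and 11 bases before the start site, in that of Ltf 75 bases before it and in that of Retnlg 246 bases before it. With Clec4e, 4 of the 10 genes held a match, against 10.8% of the 32851 windows. The PU.1 letters matched 157 bases before the start site of Ltf and were not found in the windows of Ngp and Retnlg, and neither motif was found in those of Camp and Fpr1.

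Ngp was listed at 0 in all 3 Control samples. It was at 0.113, 4.48 and 5.33 FPKM in IgG Ab and at 0.122, 0.922 and 0.166 FPKM in anti-S100a9 Ab. IgG Ab replicate 1 was lower than every anti-S100a9 Ab mouse, and the other 2 mice of its group were the highest of all 9. Against Control the adjusted p was 0.0507 (limma), and no fold change is given because Control was listed at 0. The adjusted p of that comparison ranged from 0.00228, without IgG Ab replicate 1, to 0.13 over the 18 alternatives in which Ngp was tested. The difference between the AOM/DSS groups was -2.15 (95% interval -4.74 to 0.44, adjusted p = 0.193, limma), and without IgG Ab replicate 1 it was -3.67 (adjusted p = 0.0152, limma).

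Camp was listed at 0 in Control replicate 1 and was at 0.0780 and 0.152 FPKM in the other Control samples. The IgG Ab samples held 0.0753, 2.42 and 0.147 FPKM. In anti-S100a9 Ab it was at 0.173 and 0.760 FPKM in replicates 1 and 2 and listed at 0 in replicate 3. A single mouse, IgG Ab replicate 2, stood above all others, and the remaining values of the 3 groups overlapped. The difference between IgG Ab and Control was 1.53 (95% interval -0.89 to 3.95, adjusted p = 0.368, limma), and it was 0.33 without IgG Ab replicate 2. Between the AOM/DSS groups it was -0.74 (95% interval -3.16 to 1.68, adjusted p = 0.632, limma), and it turned to 0.46 without IgG Ab replicate 2 and to 0.02 without anti-S100a9 Ab replicate 3.

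Ltf was at 0.163, 0.0593 and 0.0863 FPKM in Control, at 3.84, 1.75 and 0.704 FPKM in IgG Ab and at 0.1001, 0.407 and 0.0242 FPKM in anti-S100a9 Ab. All IgG Ab mice were above all others, with replicate 1 the highest, and the other groups overlapped. Ltf rose in IgG Ab by 3.19 on the log2 scale (standard error 0.65, adjusted p = 0.0189, limma), and the adjusted p was 0.0701 without Control replicate 2. It fell by 2.95 between the AOM/DSS groups (standard error 0.65, adjusted p = 0.0198, limma), with an adjusted p of 0.0673 and 0.0611 without anti-S100a9 Ab replicate 1 or replicate 3 and of 0.05, just over the threshold, without IgG Ab replicate 1. The mean of the anti-S100a9 Ab mice was 8.44% of that of the IgG Ab mice.

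Retnlg was at 0.0936, 1.86 and 1.34 FPKM in Control, at 5.38, 34.0 and 75.6 FPKM in IgG Ab and at 1.19, 1.21 and 0.817 FPKM in anti-S100a9 Ab. It had the highest level of the 10 genes in every IgG Ab mouse, where its values were spread over a 14.1-fold range, and the anti-S100a9 Ab mice lay within the Control range. Retnlg rose in IgG Ab by 4.89 on the log2 scale (standard error 1.05, adjusted p = 0.022, limma). It fell by 4.39 between the AOM/DSS groups (standard error 1.05, adjusted p = 0.0238, limma), to a mean of 2.79% of that of the IgG Ab mice. The rise had an adjusted p of 0.0575 without Control replicate 1, the lowest value of its group, of 0.0581 without IgG Ab replicate 3 and of 0.0701 with only the 2 groups compared in the fit. The call of the fall was lost without IgG Ab replicate 3 and without any single anti-S100a9 Ab mouse, with adjusted p from 0.0665 to 0.0729 in those fits (limma). With each mouse left out in turn, the difference ran from -5.46 to -3.56.

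The IgG Ab mice differed widely in these genes. Replicate 1 had the lowest value of its group for 9 of the 10 genes, Ltf being the exception, whereas it was the lowest for 32.6% of all genes tested and the highest for 45.8%. The ratio of the highest to the lowest IgG Ab mouse was 1.64 for Csf3r, 1.76 for Trem1, 2.70 for Clec4d, 47.1 for Ngp and 32.1 for Camp. The same mouse was lowest in 13 of 13 other neutrophil surface genes, in 11 of 12 monocyte and macrophage markers and in 8 of 8 colon epithelium markers. It was the highest in 4 of 5 mast cell markers. The part of this sample's composition in the results for the 10 genes was not tested beyond the fits that leave it out.

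**Figure D3:**
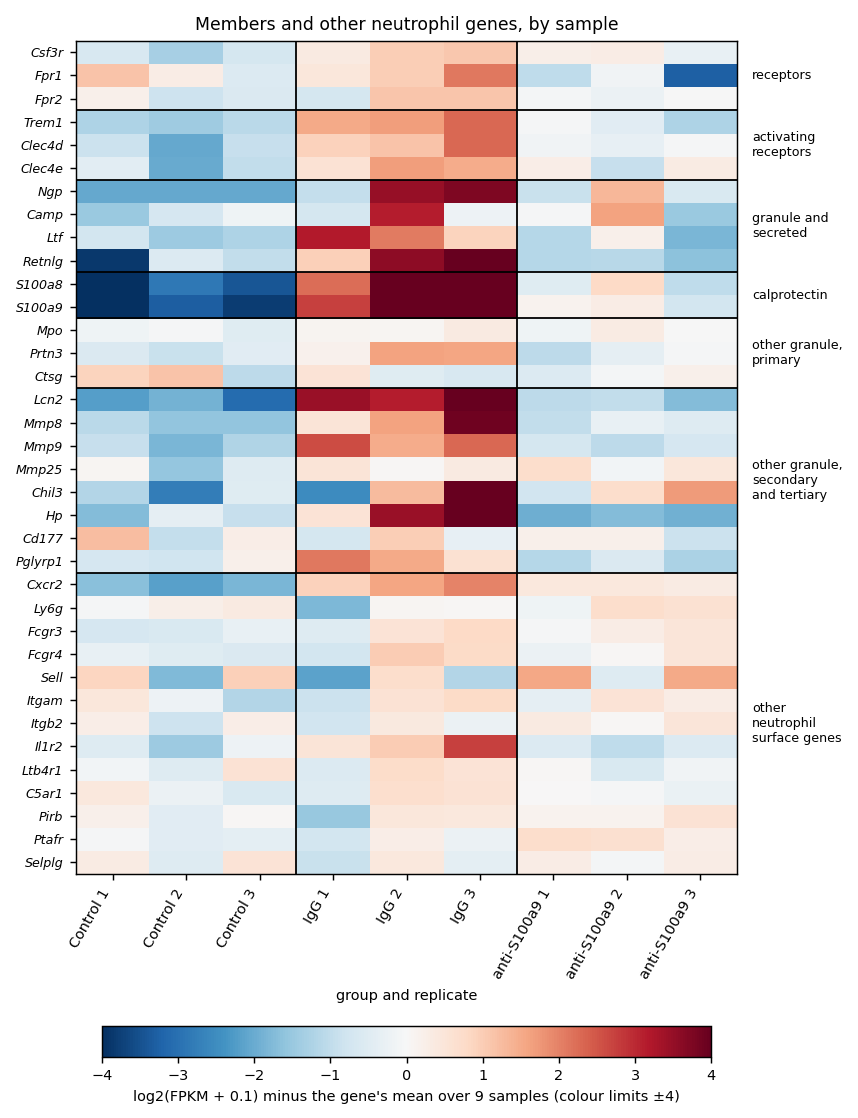
Colours show log2(FPKM + 0.1) minus each gene's mean over the 9 samples, with 1 row per gene and 1 column per mouse, for the 10 genes, the calprotectin genes and other neutrophil genes that passed the filter, and limits of -4 and 4. The 3 IgG Ab columns are red for the calprotectin genes and for several secondary granule genes, whereas rows such as Ly6g, Itgb2 and Selplg show no block of that kind.

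Other granule genes were read beside the 10. Of 10 further genes of secondary and tertiary granules, 8 passed the filter and 5 were higher in IgG Ab than in Control and lower in anti-S100a9 Ab than in IgG Ab (Lcn2, Mmp8, Mmp9, Hp and Pglyrp1). Hp, haptoglobin, was at 6.16, 46.8 and 103.9 FPKM in the IgG Ab mice, in the same order as Retnlg. Pglyrp1, a peptidoglycan recognition protein that is also a ligand of Trem1, was at 2575, 1695 and 915 FPKM in those mice, in the same order as Ltf, and at 376, 347 and 690 FPKM in Control. It rose by 1.82 on the log2 scale (adjusted p = 0.0284, limma) and fell by 2.39 between the AOM/DSS groups (adjusted p = 0.0109, limma). Mmp25, Chil3 and Cd177 passed in neither comparison. Cd177 was at 217.9, 48.0 and 113.4 FPKM in Control, far above any of the 10 genes there. Itgb2l and Olfm4 did not pass the filter. Lcn2 is known to be made by inflamed epithelium as well as by neutrophils, and its source in these samples was not tested. The sources of Pglyrp1 and Cd177 were not tested either.

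Of the 4 genes of primary granules, which are filled earliest in the marrow, Elane did not pass the filter. Prtn3, proteinase 3, was at 0.0926, 0.0569 and 0.113 FPKM in Control, at 0.224, 0.786 and 0.761 FPKM in IgG Ab and at 0.0409, 0.125 and 0.183 FPKM in anti-S100a9 Ab. It rose by 1.75 (adjusted p = 0.039, limma) and fell by 1.60 between the AOM/DSS groups (adjusted p = 0.0374, limma). Mpo, myeloperoxidase, lay between 0.0449 and 0.159 FPKM in all 9 samples, with a difference of 0.42 between IgG Ab and Control (adjusted p = 0.32, limma). Ctsg passed in neither comparison.

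Of 14 other neutrophil surface genes, 13 passed the filter, and 2 were higher in IgG Ab and lower in anti-S100a9 Ab than in IgG Ab, Cxcr2 and Il1r2. Cxcr2, the receptor for neutrophil-attracting chemokines, was at 0.0831, 0.0275 and 0.0648 FPKM in Control, at 1.00, 1.64 and 2.21 FPKM in IgG Ab and at 0.673, 0.682 and 0.628 FPKM in anti-S100a9 Ab. The 3 groups did not overlap. Cxcr2 rose by 3.39 on the log2 scale (adjusted p = 0.000857, limma) and fell by 1.11 between the AOM/DSS groups (adjusted p = 0.0392, limma). Ly6g, the surface antigen by which mouse neutrophils are usually recognised, was at 88.9, 106.9 and 117.3 FPKM in Control, at 26.1, 96.0 and 95.2 FPKM in IgG Ab and at 82.1, 150.2 and 138.3 FPKM in anti-S100a9 Ab. It did not pass in any comparison, with a difference of -0.74 between IgG Ab and Control (adjusted p = 0.329, limma). Its level in Control was far above that of any of the 10 genes, and its source was not tested.

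The level of S100a9 relative to each of the 10 genes was computed as a log2 ratio, with 0.1 FPKM added to each. S100a9 itself was at 0.370, 0.859 and 0.575 FPKM in Control, at 63.1, 173.3 and 266.9 FPKM in IgG Ab and at 10.3, 11.6 and 5.54 FPKM in anti-S100a9 Ab. S100a9 and S100a8 both passed in both comparisons with IgG Ab. For all 10 genes, every IgG Ab mouse had a higher ratio than every Control mouse. The 10 ratios share S100a9, which rose by 7.73 on the log2 scale in IgG Ab, more than any of the 10 genes. A higher mean ratio for each gene thus follows from S100a9, and the 10 results are not separate. The share of all genes with a higher ratio was not computed. The mean ratio differed between these groups by 2.85 for Retnlg at the least and by 6.84 for Fpr1 at the most. A two-sided exact permutation test gave p = 0.1 for each gene, the smallest value that 3 against 3 mice allow, or 0.115 after adjustment over the 30 tests of 10 genes in 3 comparisons.

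Between the AOM/DSS groups S100a9 itself differed by -4.02 on the log2 scale. The mean ratio differed by -3.42 for Fpr2, the widest difference of the 10, since Fpr2 fell least (-0.60). Every anti-S100a9 Ab mouse was below every IgG Ab mouse for this ratio (exact permutation p = 0.1). For Retnlg the ratio was 3.53, 2.35 and 1.82 in the IgG Ab mice and 3.02, 3.16 and 2.62 in the anti-S100a9 Ab mice. These overlapped, with a mean difference of 0.37 (exact permutation p = 0.6). The AOM/DSS groups also overlapped for Ltf, which differed by -1.06 (exact permutation p = 0.5). They overlapped as well for Fpr1 and Ngp, with differences of -1.356 and -1.865 (exact permutation p = 0.2 for each). In the third comparison, S100a9 itself was higher by 3.71 on the log2 scale in anti-S100a9 Ab than in Control, more than any of the 10 genes. A higher mean ratio for all 10 genes thus follows from S100a9 here too, and the share of all genes was not computed. The difference of the mean ratio ran from 1.74 for Ngp to 5.48 for Fpr1 (exact permutation p = 0.1 for each). The added 0.1 FPKM holds the ratio down where a gene is listed at 0, as Ngp was in Control.

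**Figure D4:**
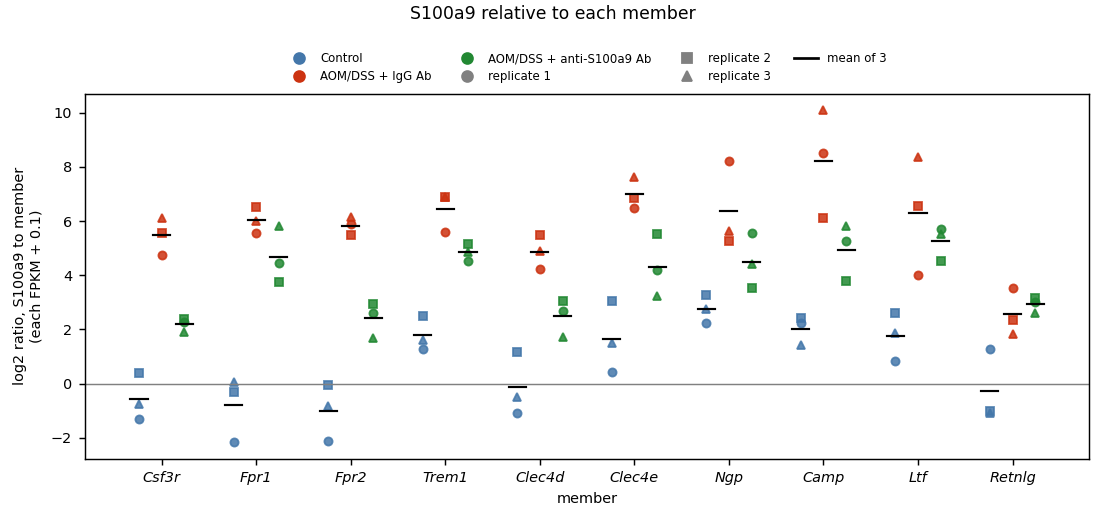
The log2 ratio of S100a9 to each of the 10 genes is plotted for the 9 mice (each FPKM + 0.1), with colours for groups, symbols for replicate numbers and lines for group means (n = 3). All ratios share S100a9. IgG Ab points lie above Control points for all 10 genes, and the AOM/DSS groups overlap for Fpr1, Ngp, Ltf and Retnlg. For Retnlg the means are 2.56 and 2.93.

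The ligands and signalling partners of these receptors were listed as well. Of 6 ligands, Saa3 and Pglyrp1 were higher in IgG Ab and lower in anti-S100a9 Ab than in IgG Ab. Csf3, which encodes G-CSF, was listed at 0 in 2 of 3 Control samples and was at 0.269, 0.158 and 1.95 FPKM in IgG Ab (adjusted p = 0.0634, limma). Anxa1, annexin A1, a ligand of the formyl peptide receptors, was at 110, 116 and 109 FPKM in Control, at 155, 134 and 198 FPKM in IgG Ab and at 133, 144 and 121 FPKM in anti-S100a9 Ab, with a difference of 0.52 between IgG Ab and Control (adjusted p = 0.0748, limma). Saa1 lay in the other direction, at 1451, 1907 and 3324 FPKM in Control, at 213.8, 1173 and 727.8 FPKM in IgG Ab and at 992.7, 1813 and 1282 FPKM in anti-S100a9 Ab. Every IgG Ab mouse was below every Control mouse, and the difference was -1.89 (adjusted p = 0.0802, limma), with 1.22 between the AOM/DSS groups (adjusted p = 0.17, limma). Before adjustment, 4 of the 6 ligands were higher and 1 was lower in IgG Ab than in Control at p under 0.05. Of 10 receptor partners and signalling genes, 3 were higher in IgG Ab, namely Fcer1g by 0.79 (adjusted p = 0.0498, limma), Stat3 by 0.72 (adjusted p = 0.00956, limma) and Socs3 by 2.32 (adjusted p = 0.00124, limma). Stat3 carries the signal of the G-CSF receptor, and Socs3 restrains it. Between the AOM/DSS groups Socs3 fell by 1.84 (adjusted p = 0.00446, limma). Tyrobp, the partner of Trem1, was at 28.6, 17.4 and 38.9 FPKM in Control and at 26.4, 44.8 and 50.2 FPKM in IgG Ab, and these ranges overlapped.

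Of 5 chemokines that attract neutrophils through Cxcr2, Cxcl1, Cxcl2, Cxcl3 and Cxcl5 were higher in IgG Ab and lower in anti-S100a9 Ab than in IgG Ab, and Ppbp passed in neither comparison. The summed level of the 5 was 0.515 to 1.45 FPKM in Control, 66.2 to 79.1 FPKM in IgG Ab and 5.73 to 7.93 FPKM in anti-S100a9 Ab. IgG Ab replicate 1 was the lowest of its group for 1 of the 5. Of the regulators of granulopoiesis, 3 of 5 were tested and none passed (limma, 0 also before adjustment), Spi1 and Cebpa among them. Cebpe did not pass the filter.

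Of 25 family relatives of the 10 genes, 17 were tested, and none was higher in IgG Ab than in Control at an adjusted p under 0.05 (limma), and 3 were at an unadjusted p under 0.05 (Trem2, Trem3 and Csf2ra). Retn and Retnla, resistin and its macrophage-associated relative, were lower. Retnla was at 20.2, 47.9 and 53.0 FPKM in Control, at 0.203 and 2.49 FPKM in IgG Ab replicates 1 and 2 and listed at 0 in replicate 3, and at 8.09, 19.9 and 11.2 FPKM in anti-S100a9 Ab. It rose between the AOM/DSS groups (adjusted p = 0.0172, limma), a direction opposite to that of Retnlg. Retnlb, made by goblet cells, was at 230, 731 and 425 FPKM in Control and at 137, 2479 and 2120 FPKM in IgG Ab, with an adjusted p of 0.516 (limma). Csf2ra fell by 0.67 between the AOM/DSS groups (adjusted p = 0.0305, limma). The formyl peptide receptor relatives Fpr3, Fpr-rs3, Fpr-rs4, Fpr-rs6 and Fpr-rs7 were listed at 0 in all 9 samples.

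Markers of other cells that can express some of the 10 genes were counted with them. None of the 12 monocyte and macrophage markers passed at an adjusted p under 0.05 in any comparison (limma), although at an unadjusted p under 0.05 Fcgr1 was higher and Mertk lower in IgG Ab than in Control, Adgre1 and Mertk were higher in anti-S100a9 Ab than in IgG Ab, and Cd68 was higher in anti-S100a9 Ab than in Control. Their summed level was 429 to 651 FPKM in Control, 330 to 645 FPKM in IgG Ab and 429 to 557 FPKM in anti-S100a9 Ab. None of the 3 eosinophil markers tested passed (limma, 0 also before adjustment), and Epx was listed at 0 in all samples. Of 6 blood and erythroid genes tested, Alas2 was higher in IgG Ab by 2.14 (adjusted p = 0.00334, limma) and fell by 2.32 between the AOM/DSS groups (adjusted p = 0.00374, limma), and the list summed to 76.8 to 99.8 FPKM in Control, 54.0 to 308 FPKM in IgG Ab and 41.5 to 67.7 FPKM in anti-S100a9 Ab. Hbb-bs, a beta globin, was at 23.1, 170.5 and 106.0 FPKM in the IgG Ab mice, lowest in replicate 1 as most of the 10 genes were. The part of blood in the values of the 10 genes was not tested. Of 8 colon epithelium markers, Slc26a3 and Car1 were lower in IgG Ab and higher in anti-S100a9 Ab than in IgG Ab, and of 5 smooth muscle and stroma markers Col1a1 and Pdgfra were higher in IgG Ab, Col1a1 was lower in anti-S100a9 Ab than in IgG Ab, and Myh11 was higher there. Among 7 T and B cell markers none passed in IgG Ab against Control (limma, 0 also before adjustment), and 1, Cd4, was higher in anti-S100a9 Ab than in IgG Ab. The median difference of the list between the AOM/DSS groups was 2.23. At an unadjusted p under 0.05 Cd79a (2.23) and Ms4a1 (3.45) were higher there as well (limma, adjusted p = 0.126 and 0.0865). Of 5 mast cell markers Kit was higher in anti-S100a9 Ab than in IgG Ab, whereas the median difference of the list was -1.44, and at an unadjusted p under 0.05 Tpsb2 (-2.03), Cpa3 (-1.67) and Fcer1a (-1.44) were lower (limma, adjusted p = 0.0652, 0.102 and 0.12).

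The genes whose profile over the 9 samples came nearest to a member were found for the gene with the highest IgG Ab mean in each role. The measure was the root-mean-square difference of gene-centred log2 values among 13073 genes, a number that still counts members left out of the search. Arsi (0.26), Igfbp4 (0.29) and Stc2 (0.32) were nearest to Csf3r. Bdkrb1 (0.36), Cwh43 (0.37) and Adam8 (0.37) were nearest to Clec4d. Hp (0.82) and Stfa2 (0.97) were nearest to Retnlg. This measure grows with the spread of a gene, and Retnlg differed by 4.89 between IgG Ab and Control, against 1.70 for Csf3r and 2.72 for Clec4d. The distances of the 3 genes are therefore not compared with each other. Hp is an acute-phase protein that neutrophils also store, and Stfa2 encodes a stefin found in neutrophils. Stfa2 was listed at 0 in every Control and anti-S100a9 Ab sample. The values are a description over samples that share groups and libraries.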

How the data were processed

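Total RNA was sequenced in 9 mouse colon samples. The authors deposited 1 file per mouse, with FPKM values under gene symbols in 21544 rows. This unit was read from the form of the values and is not given in the sources used here. The submitters' processing notes name TopHat, Cufflinks, HTSeq, DESeq and GRCm38. Rows with a repeated symbol (46) were summed. Depth is unknown. A linear model of all 9 samples with an intensity trend was fitted to log2(FPKM + 0.1) in limma 3.58.1 (R 4.3.3), for genes that reached 0.1 FPKM in 3 or more samples, and was tested on simulated data. DESeq needs counts and was not run. The looser thresholds (unadjusted p under 0.05, more than 2-fold) are those of the study's methods. Single ratios were compared with two-sided exact permutation tests. All 10 genes were named, together with the genes of lists by role, cell type and family (up to 4 with values: the highest AOM/DSS + IgG Ab means, or those a result turns on) and the 3 nearest profiles to 1 gene of each role, of which 1 is not reported here. The genes and lists were chosen with earlier results of these data known. Positions are from GENCODE M21 (GRCm38), and promoter windows from RefSeq (GRCm38.p6). Alternatives covered the pseudocount, the filter, 3 scalings, the trend, the replicate block, the groups in the fit and each mouse left out. Tables and figures were made in Python 3.11.15 with pandas 2.3.3, numpy 2.4.6, scipy 1.17.1 and matplotlib 3.10.9.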

Additional observations from a re-analysis of the deposited data

How the results depend on the processing

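With each mouse left out in turn, the number of the 10 genes that were higher in AOM/DSS + IgG Ab than in Control ran from 4 to 8 at an adjusted p under 0.05 and from 7 to 8 at the looser thresholds. The number lower in AOM/DSS + anti-S100a9 Ab than in AOM/DSS + IgG Ab ran from 1 to 5 and from 5 to 8, and the number higher in AOM/DSS + anti-S100a9 Ab than in Control was 0 throughout and ran from 0 to 3. In these fits a group of 2 mice is assumed to vary like the others. With a filter of at least 1 FPKM in 3 samples, 4 genes were higher in AOM/DSS + IgG Ab than in Control at the looser thresholds, since Clec4e, Ngp, Camp and Ltf were then not tested. At the looser thresholds, the 1 gene higher in AOM/DSS + anti-S100a9 Ab than in Control became 0 with a pseudocount of 1 or quantile normalization, 3 with a pseudocount of 0.01 or equal FPKM totals, and 2 with only the 2 groups compared, and the cause was not tested. Equal FPKM totals moved the median log2 difference of all genes in that comparison from 0.04 to 0.23. The main fit did not pair the mice by replicate number. The correlation of deviations between same-numbered mice ran from -0.19 to 0.25, which cannot show whether such mice shared a cage or batch. With the replicate block, the adjusted counts were 7, 4 and 0 in place of 6, 5 and 0. With only the 2 groups compared in the fit they were 4, 4 and 0. Reversed values were those of Camp between the AOM/DSS groups (0.46 without AOM/DSS + IgG Ab replicate 2 and 0.02 without AOM/DSS + anti-S100a9 Ab replicate 3, with -1.53 the lowest over mice left out), and those against Control of Ltf (-0.33 without AOM/DSS + anti-S100a9 Ab replicate 2, 0.68 the highest) and Retnlg (-0.54 without Control replicate 1, 1.13 the highest). Of the differences of single genes under the alternatives, 513 kept their direction and side of the threshold, 33 lost the call, 8 gained it and 4 reversed.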
